A study of Mus musculus with 20 samples.

Results

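The transcripts described here encode proteins through which the liver signals, or responds to, fasting: the secreted proteins Fgf21, Angptl4, Igfbp1, Igfbp2 and Gdf15, the leptin receptor Lepr, and the liver transcription factor Creb3l3. They were taken by symbol from a table of read counts per gene, and all 7 were found among its 29915 genes and passed the filter on low counts that left 13894 genes for testing. The study asked what SUMOylation of the transcription factor Prox1, the attachment of the small protein SUMO to a lysine, does in mouse liver. Bulk RNA was sequenced from livers of male mice on regular chow, with either wild-type Prox1 or the K556R form, in which that lysine is replaced by arginine, and each genotype was sampled fasted and refed. This gave 4 groups of 5 libraries, fasted and refed for each genotype. The K556R allele is a conditional knock-in that Cre switched on in hepatocytes at the age of 8 weeks, and sampling followed after 11 weeks, at Zeitgeber time 15 to 17. The titles call the wild-type libraries Ctrl and the K556R libraries Cre, so Cre itself and the K556R allele cannot be told apart. The labels number repeats without saying that each came from another mouse, so each p-value reflects the spread of these libraries, which may be technical.

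In the fasted liver, falling insulin and rising glucagon and fatty acids switch on genes for gluconeogenesis, fatty acid oxidation and ketone production, and the liver releases hormones that tell other organs about the lack of food. Fatty acids act through the nuclear receptor PPARα, low insulin frees the forkhead factor FOXO1, and amino acid shortage or cell stress acts through the factor ATF4. Refeeding raises insulin and turns these programmes down while lipid synthesis is turned on.

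Libraries held 33746054 to 50647297 counts, in 2 batches given by the labels: batch 1 with 14 libraries and batch 2 with 6, of which 3 were K556R refed and 1 came from each other group. Feeding state separated the libraries, with Pck1, a gluconeogenic enzyme, at 4871 CPM (counts scaled to a common library size and composition) or more in every fasted library and at 2393 CPM or less in every refed one. Srebf1, the regulator of lipid synthesis, was at 93.2 CPM or less in fasted and 243 CPM or more in refed libraries. Prox1 itself was lower in K556R livers, at 104 ± 15.7 against 185 ± 38.6 CPM fasted and 75.5 ± 12.1 against 110.1 ± 15.7 CPM refed (SD, n = 5), and its log2 difference averaged over feeding states was −0.72 (SE 0.10, edgeR adjusted p = 0.00563). It did not pass within fasted (adjusted p = 0.0666) or refed livers (0.559), and in the average edgeR called 0 genes, Prox1 included, in batch 1 alone (1388 genes had an unadjusted p under 0.05), with the replicate number as a block (969) and without 3 libraries together, repeat 1 of batch 1 of both K556R groups and repeat 1 of batch 2 of fasted wild type (1367), against 4 in the fit used here and 40 with DESeq2. A count per gene cannot show the K556R base change. Repeat 1 of batch 1 (1_b1) of the fasted and of the refed K556R group stood apart from the other libraries on the second principal component, at −39.5 and −57.3 against −8.06 to 10.7. They also had the highest summed levels of 6 proliferation genes (14.9 and 33.2 CPM, others 9.25 at most) and 7 lymphocyte markers (10.8 and 14.8 CPM, others 8.95 at most). Hepatocyte markers summed to at least 107700 CPM in every library, while pancreatic acinar and skeletal muscle markers summed to 0.0838 CPM at most and adipocyte markers to 2.41 CPM at most. In bulk RNA, fewer cells of a type and less RNA per cell cannot be told apart.

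All 7 transcripts were lower in refed than in fasted wild-type livers, and 6 of 7 were in K556R livers, where Gdf15 did not pass. The size ran from a 13.2-fold fall of Igfbp1 and a 7.90-fold fall of Angptl4 to a 1.52-fold fall of Creb3l3 in wild type. Refeeding moved a large part of the transcriptome, so these counts have a high background: 24.2% of all genes tested were called lower in wild type and 20.3% in K556R (edgeR quasi-likelihood test, adjusted p under 0.05). The median log2 change over the 7 was −1.80 for Fgf21, the middle gene, in wild type, against −0.01 over all genes tested. In wild type every fasted library lay above every refed one for 5 of the 7 genes, as for 18.7% of all genes tested, and in K556R for 4 of 7, as for 14.1% of all genes. In the fit used here no genotype difference of any of the 7 passed.

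**Figure D1:**
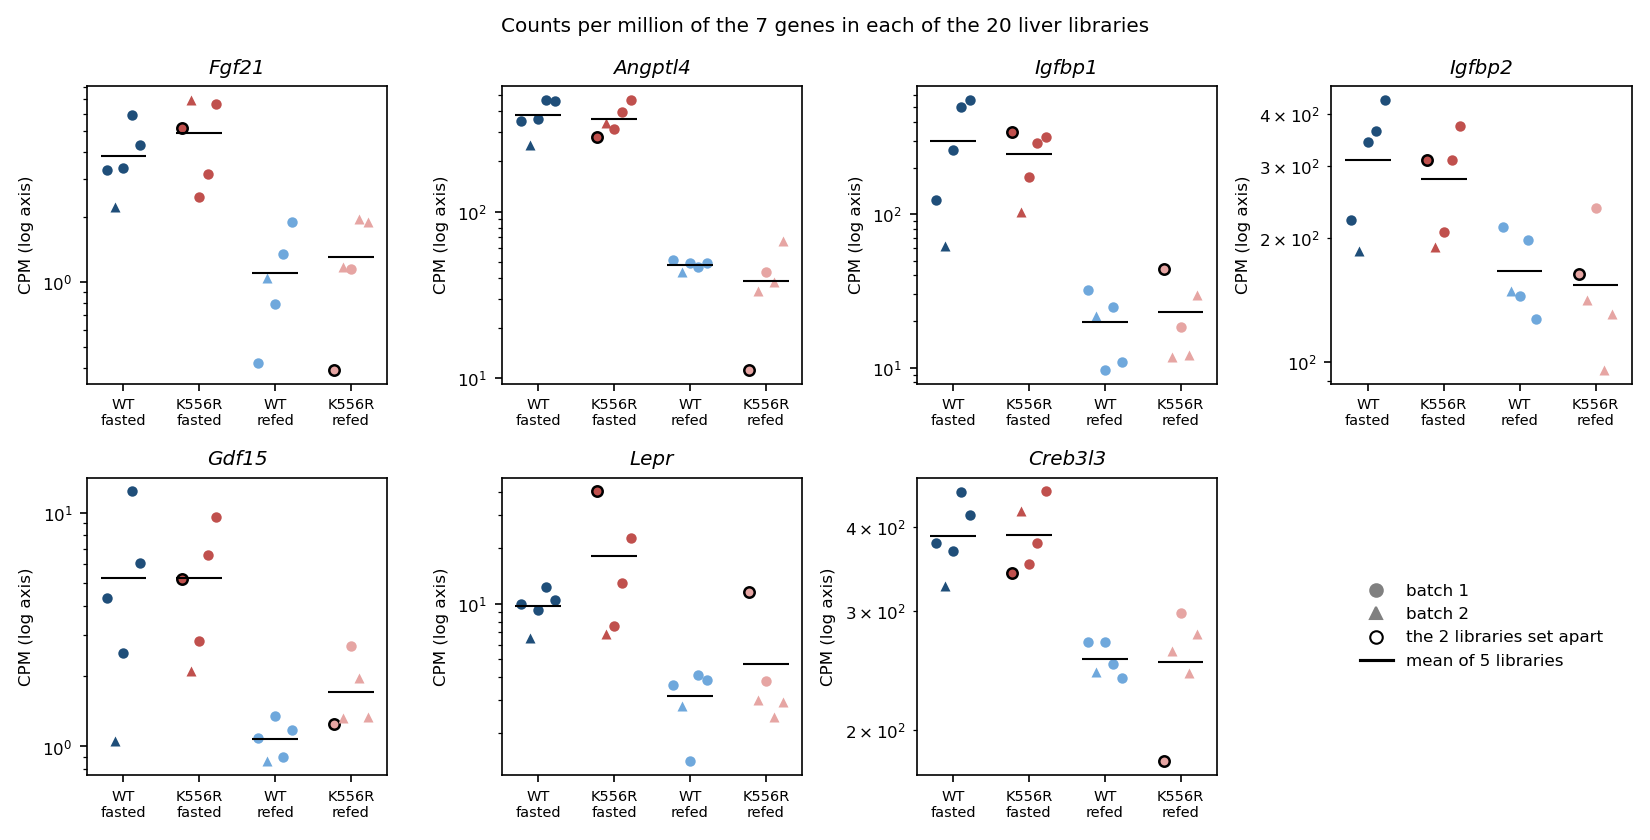
Level of each gene in CPM on a log axis, 1 panel a gene, for the 4 groups of 5 libraries; circles are batch 1, triangles batch 2, black rims mark 1_b1 of both K556R groups, and bars are group means. Fasted libraries lie above refed ones for Fgf21, Angptl4, Igfbp1 and Creb3l3 in both genotypes, while Lepr reaches 40.7 and 11.5 CPM in the 2 rimmed libraries.

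Fgf21 encodes fibroblast growth factor 21, a hormone that the fasted liver releases under PPARα and that acts on fat and brain through the co-receptor beta-klotho. The gene lies at chr7:45613886-45615490 on the minus strand (GRCm38). The 250 bases before its start, chr7:45615491-45615740 on the minus strand (GRCm38.p6, RefSeq), are shown because they hold letters of 3 known motifs near a start site whose transcript moved with feeding. Capitals mark, in order, the amino acid response element ATTGCATCA at −140 to −132, which ATF4 can bind, the E-box CACGTG at −50 to −45, and the TATA box TATAAA at −28 to −23, counted back from the start.

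Fgf21 promoter: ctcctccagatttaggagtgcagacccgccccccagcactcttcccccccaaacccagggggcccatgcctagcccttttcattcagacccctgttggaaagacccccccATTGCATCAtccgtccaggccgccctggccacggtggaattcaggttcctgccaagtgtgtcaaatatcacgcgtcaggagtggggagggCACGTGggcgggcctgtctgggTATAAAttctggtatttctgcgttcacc

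Of 32851 promoters of that length in the RefSeq table, 0.167% held the amino acid response element, 6.02% the E-box and 12.4% the TATA box on either strand. The 1 that held all 3 was Fgf21 itself, so that count could not be 0. Such a match is a description of letters, not a bound site.

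Fgf21 was scarce. In order of repeats 1 to 4 of batch 1 and then batch 2, the wild-type fasted libraries held 3.29, 3.35, 5.94, 4.28 and 2.22 CPM, and the wild-type refed libraries 0.420, 0.784, 1.35, 1.90 and 1.04 CPM. The groups did not overlap, although the lowest fasted library, 1_b2, and the highest refed library, 4_b1, came close. The K556R fasted libraries held 5.17, 2.46, 3.15, 6.64 and 6.98 CPM. Their refed counterparts, in order 1_b1, 2_b1, 1_b2, 2_b2 and 3_b2, held 0.390, 1.14, 1.16, 1.95 and 1.88 CPM. Again no refed library reached a fasted one. The log2 change on refeeding was −1.80 (SE 0.42, adjusted p = 0.00165) in wild type, from 3.82 ± 1.40 to 1.10 ± 0.56 CPM, and −2.06 (SE 0.43, adjusted p = 9.04e-04) in K556R, from 4.88 ± 2.03 to 1.30 ± 0.64 CPM (SD, n = 5, edgeR).

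Among 11 tested genes of FGF21 reception and regulation, 4 rose and 5 fell on refeeding in wild type (median log2 change 0.09), and 4 rose and 3 fell in K556R (median −0.10). Of all genes tested, 45.1% were called in either direction in wild type and 39.9% in K556R, the background for this and the lists that follow. Ppara, the receptor that drives Fgf21 in fasting, fell by 1.14 in wild type (SE 0.08) and by 1.09 in K556R (SE 0.08). The deacetylase Sirt1 fell by 0.85 and 0.74. Mlxipl, the carbohydrate-sensing factor ChREBP, rose by 1.22 and 1.17, and the retinoid receptor Rxra fell by 0.37 and 0.22. The co-receptor Klb was at 0.09 (SE 0.10) and −0.13 (SE 0.10) and did not pass in either genotype.

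Angptl4 encodes a secreted inhibitor of lipoprotein lipase, the enzyme that releases fatty acids from circulating triglyceride, and is a PPARα target (chr17:33773750-33781830, minus strand). Wild-type fasted libraries held 351, 358, 468, 463 and 252 CPM and wild-type refed ones 51.1, 49.4, 46.6, 49.2 and 43.6 CPM. The refed wild-type livers were close to one another, with a coefficient of variation of 6.15%, and far below every fasted one. K556R fasted libraries held 282, 312, 394, 470.0 and 338 CPM, and the refed libraries 11.2, 43.2, 33.6, 37.7 and 66.1 CPM. The lowest of these, 11.2 CPM, was K556R refed 1_b1, and the coefficient of variation of that group was 51.4%. Refeeding changed Angptl4 by −2.98 in wild type (SE 0.32, adjusted p = 1.26e-06) and by −3.25 in K556R (SE 0.35, adjusted p = 1.82e-06). Without the 2 libraries set apart the K556R change was −2.93 (SE 0.22, adjusted p = 2.11e-07).

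Around Angptl4, 14 genes of lipoprotein lipase control were tested, of which 1 rose and 2 fell in wild type (median 0.02), and 1 rose and 3 fell in K556R (median −0.11), a smaller part than among all genes (45.1% and 39.9%). The one that rose was Angptl8, listed under its older symbol Gm6484, which encodes a feeding-induced secreted regulator of triglyceride clearance: its log2 change was 3.79 (SE 0.43) in wild type and 3.40 (SE 0.43) in K556R. Lipg, endothelial lipase, fell by 2.30 and 2.37, and the apolipoprotein Apoa5 fell by 0.38 and 0.50.

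Igfbp1 and Igfbp2 encode secreted proteins that bind insulin-like growth factors in blood. Insulin suppresses Igfbp1 through FOXO1, which binds insulin response sequences in its promoter. The 250 bases before the Igfbp1 start, chr11:7197537-7197786 on the plus strand (GRCm38.p6, RefSeq; gene at chr11:7197782-7202546), are shown because they hold both letter forms of that sequence and because Igfbp1 had the largest fall of the 7 genes in wild type. Capitals mark CAAAACA at −108 to −102 and, on the other strand, CAAAATA at −97 to −91, which reads TATTTTG on the strand printed.

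Igfbp1 promoter: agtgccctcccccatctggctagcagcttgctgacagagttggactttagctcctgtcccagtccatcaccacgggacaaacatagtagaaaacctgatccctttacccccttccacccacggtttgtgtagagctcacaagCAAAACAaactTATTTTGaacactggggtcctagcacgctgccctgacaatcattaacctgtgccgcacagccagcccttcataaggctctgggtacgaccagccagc

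Among these promoters, 5.56% held the first form, 3.95% the other and 0.381% both. The 1 of 32851 with them in this arrangement, 4 bases between, was Igfbp1 itself, so that count could not be 0. The other motifs searched, on both strands, were TGACGTCA (cAMP response element, 1.55% of promoters), the PPAR response element, AGGTCA repeated after 1 free base (0.033%), and the forkhead core GTAAACA (3.17%), none of which matched in the windows of the members. The table held windows for 6 of the 7 genes, 10 windows in all. It held none for Angptl4, which was therefore not searched for any motif. In these windows CACGTG was also found before 1 start each of Igfbp2 and Gdf15 and CAAAACA before 1 start each of Lepr and Creb3l3.

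Igfbp1 varied widely among fasted wild-type livers. Fasted wild-type levels were 124, 261, 500.2, 562 and 61.8 CPM, and refed ones 31.9, 9.65, 24.9, 10.8 and 21.6 CPM. Every fasted library lay above every refed one, while library 1_b2 was 9.10-fold below 4_b1 within the fasted group. Fasted K556R levels were 344, 176, 292, 319 and 104 CPM, and refed ones 43.9, 18.3, 11.8, 12.0 and 29.6 CPM. The log2 change was −3.72 in wild type (SE 0.57, adjusted p = 5.51e-05) and −3.00 in K556R (SE 0.57, adjusted p = 5.43e-04). In batch 2 alone, with 1 library in each wild-type group, the wild-type change was −1.50 (adjusted p = 0.518), against −4.23 in batch 1 alone.

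Igfbp2 fell less. Wild-type livers held 222, 343, 365, 434 and 186 CPM fasted and 212, 145, 198, 127 and 149 CPM refed. These groups overlapped, since fasted 1_b2 lay below refed 1_b1 and 3_b1. K556R livers held 310.3, 207, 310.0, 375 and 190.1 CPM fasted and 164, 237, 141, 95.8 and 131 CPM refed, and overlapped too. The log2 change was −0.86 in wild type (SE 0.20, adjusted p = 0.00187) and −0.63 in K556R (SE 0.21, adjusted p = 0.0227). The K556R call did not hold without K556R fasted 4_b1 (adjusted p = 0.0554), without K556R refed 1_b1 (0.0783) or without the 2 libraries set apart (0.111). It was also lost in batch 1 alone (0.154), in batch 2 alone (0.101) and with limma (0.0708). The gene lies at chr1:72824503-72852474 on the plus strand.

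Of 14 tested genes of the insulin-like growth factor axis, 1 rose and 6 fell in each genotype (median −0.25 in wild type and −0.40 in K556R), a share near that of all genes (45.1% and 39.9% called). Those with the lowest p in wild type were the insulin-restrained factor Foxo1, which fell by 1.62 (SE 0.10), the insulin receptor Insr, which fell by 0.65 (SE 0.07), the IGF2 clearance receptor Igf2r, which fell by 0.42 (SE 0.06), and Foxo3, which fell by 0.93 (SE 0.15). All 4 fell in K556R too, by 1.42, 0.58, 0.24 and 0.74.

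Gdf15 encodes growth differentiation factor 15, a stress hormone that acts in the hindbrain to reduce food intake (chr8:70629393-70632456, minus strand). Wild-type fasted libraries held 4.31, 2.50, 12.4, 6.06 and 1.05 CPM, and wild-type refed ones 1.09, 1.35, 0.905, 1.18 and 0.863 CPM. The refed values were tight, and fasted 1_b2 lay among them, so the groups overlapped. K556R fasted libraries held 5.22, 2.83, 6.60, 9.57 and 2.10 CPM, and refed ones 1.24, 2.70, 1.33, 1.97 and 1.33 CPM, with overlap through refed 2_b1. Gdf15 fell by 2.15 in wild type on the log2 scale (SE 0.46, adjusted p = 0.00102), and was at −1.10 in K556R (SE 0.48, adjusted p = 0.0800), which did not pass. The difference between these changes was 1.05 (SE 0.65, interval −0.32 to 2.41, adjusted p = 1.00 for the interaction), so the genotypes were not shown to differ in it. The K556R change passed without wild type fasted 3_b1 (adjusted p = 0.0227) or 1_b2 (0.0292), with DESeq2 (0.0497), with no batch term (−1.62, adjusted p = 0.0143) and with only the groups compared in the fit (−1.23, adjusted p = 0.0390). In batch 2 alone the changes were −0.28 in wild type and −0.42 in K556R.

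Of 11 tested genes of the integrated stress response, through which ATF4 can raise Gdf15, 3 rose and 4 fell in each genotype (median −0.26 in wild type, −0.29 in K556R). The fallers were the stress proteins Sesn2 (−1.62 in wild type, −1.65 in K556R), Ppp1r15a (−1.01 and −0.81), Trib3 (−1.07 and −1.24) and Chac1 (−1.74 and −1.52). The list as a whole went both ways, with 5 changes above 0 and 6 below in each genotype.

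Lepr encodes the receptor of leptin, the fat-derived hormone of energy stores, and its liver transcripts include a form that yields soluble receptor; counts per gene do not separate the forms. It lies at chr4:101717404-101815352 on the plus strand. Wild-type livers held 9.91, 9.28, 12.3, 10.5 and 6.50 CPM fasted and 3.64, 1.40, 4.14, 3.86 and 2.80 CPM refed, without overlap. K556R livers held 40.7, 7.60, 13.0, 22.7 and 6.83 CPM fasted and 11.5, 3.82, 3.01, 2.44 and 2.95 CPM refed. The K556R groups overlapped only through refed 1_b1 (11.5 CPM), which exceeded fasted 2_b1 and 1_b2. The log2 change was −1.58 in both genotypes (wild type SE 0.43, adjusted p = 0.00606, K556R SE 0.43, adjusted p = 0.00764). The K556R call did not hold in batch 1 alone (−1.45, adjusted p = 0.103) or with only the groups compared in the fit (−1.40, adjusted p = 0.0564), and it held without the 2 libraries set apart (−1.70, adjusted p = 0.00133).

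Both libraries set apart were the highest of their group for Lepr. Hepatic stellate cells can express Lepr too: the summed level of 7 stellate markers, none at 0, lay between 137 and 193 CPM in fasted wild-type libraries and between 141 and 243 CPM in fasted K556R ones. After refeeding these ranges were 123 to 185 and 153 to 174 CPM. The sum was 222 CPM in K556R fasted 1_b1, 243 in 4_b1, the library with the next highest Lepr, and 174 in refed 1_b1. Their part in the Lepr levels was not tested. In leptin receptor signalling 1 of 7 tested genes rose and 5 fell in wild type (median −0.28), and 0 rose and 3 fell in K556R (median −0.21). Stat3, the factor the receptor activates, fell by 0.35 and 0.30, and its feedback inhibitor Socs3 fell by 1.03 and 0.92. Leprot, a regulator of receptor display at the cell surface, fell by 0.28 and 0.25. The adaptor Sh2b1 fell by 0.43 in wild type and was at −0.21 in K556R, where it did not pass.

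Creb3l3 encodes CREBH, a membrane-bound liver factor that is cut loose in fasting and acts with PPARα on genes that include Fgf21 (chr10:81084324-81098874, minus strand). Wild-type livers held 378, 368, 451, 416 and 326 CPM fasted and 269, 269.6, 250.2, 239 and 244 CPM refed. K556R livers held 342, 352, 378, 452 and 422 CPM fasted and 179, 298, 261, 243 and 278 CPM refed. Fasted and refed groups did not overlap in either genotype, and the lowest refed library was again K556R refed 1_b1. The changes had the smallest SE of the 7 genes, at −0.61 in wild type (SE 0.12, adjusted p = 2.25e-04) and −0.63 in K556R (SE 0.12, adjusted p = 3.63e-04). Of 13 tested relatives, activating proteases and targets, 1 rose and 3 fell in wild type (median −0.07), and 0 rose and 5 fell in K556R (median −0.11), no more than the share of all genes called (45.1% and 39.9%). Atf6, a related membrane-bound factor, fell by 0.52 and 0.50, and Mbtps1, the protease that cuts such factors, fell by 0.32 and 0.27. The acute phase gene Apcs rose by 0.69 in wild type and was at 0.28 in K556R, not passing there.

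**Figure D2:**
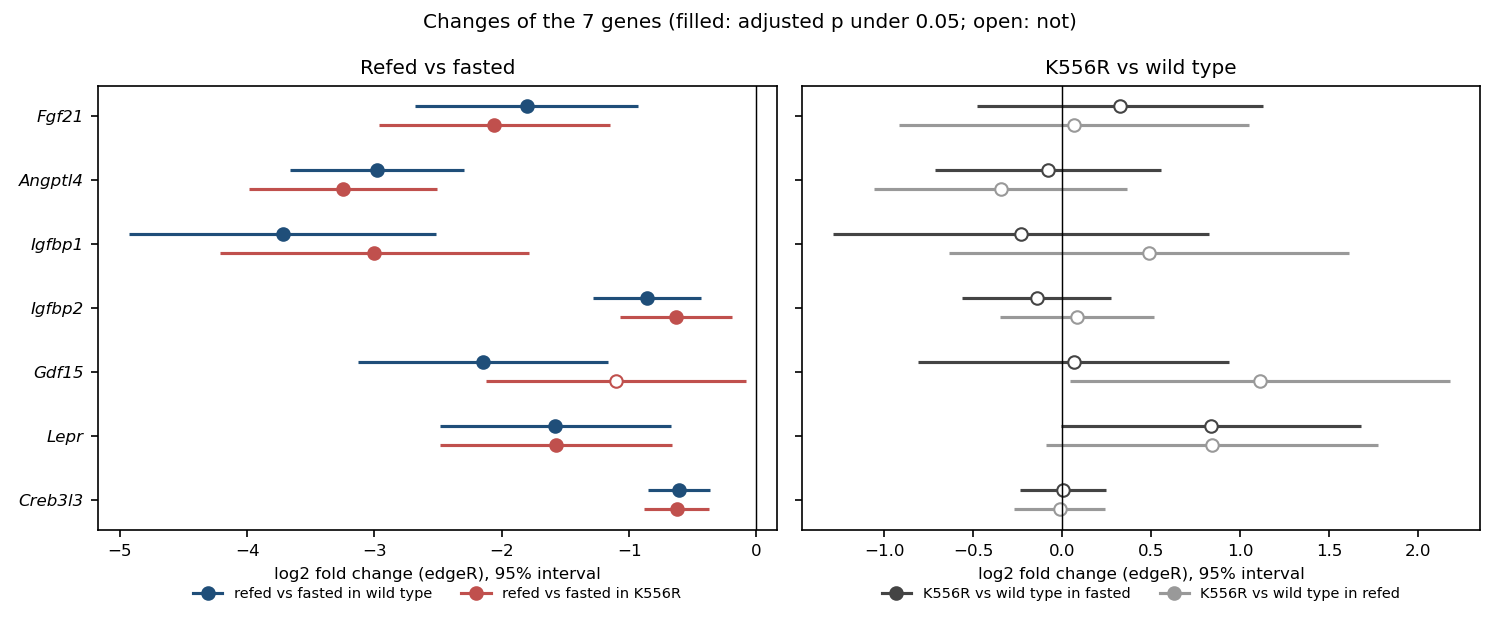
Log2 fold changes of the 7 genes with 95% intervals (edgeR, all 20 libraries, batch as a term), refed against fasted within each genotype on the left and K556R against wild type within each feeding state on the right; filled points have an adjusted p under 0.05. Every refeeding change lies below 0, and every genotype point on the right is open.

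The genotype comparison asked whether the K556R allele altered these transcripts. In the fit used here none of the 7 passed in fasted livers, in refed livers, in the average over feeding states or in the interaction. Of all genes, edgeR called 0%, 0%, 0.0288% and 0% in these. At an unadjusted p under 0.05 there were 1136, 693, 1288 and 553 genes of 13894. Among the 7 these were Gdf15 in refed livers and Lepr in the average. DESeq2 called 55, 6, 40 and 1 genes and limma 2, 0, 6 and 0, none of them among the 7. The genotype groups overlapped for each of the 7, while they were separated for 0.914% of all genes in fasted and 0.619% in refed livers.

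Lepr lay highest in K556R on average, at 18.2 ± 14.1 against 9.69 ± 2.10 CPM fasted and 4.75 ± 3.81 against 3.17 ± 1.10 CPM refed (SD, n = 5). Its log2 difference was 0.84 in fasted (SE 0.40, interval −0.01 to 1.68, adjusted p = 0.617), 0.84 in refed (SE 0.44, interval −0.09 to 1.77, adjusted p = 0.965) and 0.84 on average (SE 0.30, interval 0.21 to 1.46, adjusted p = 0.391). Without the 2 libraries set apart the average was 0.33 (SE 0.22, adjusted p = 0.601), and in batch 2 alone 0.03. Gdf15 was at 0.07 in fasted (SE 0.42) and 1.11 in refed livers (SE 0.51, interval 0.04 to 2.18, adjusted p = 0.965), where it measured 1.72 ± 0.62 CPM in K556R and 1.08 ± 0.20 CPM in wild type. Without the 2 libraries set apart the refed difference was 1.48 (SE 0.56, edgeR adjusted p = 0.840), and with limma 1.32. It was smaller with no batch term (0.67), with only the groups compared (0.815), in batch 1 alone (0.786) and in batch 2 alone (0.841).

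The other 5 genes were within 0.49 of 0 in either feeding state. Creb3l3 gave the narrowest interval, with a difference of 0.01 in fasted livers (−0.23 to 0.25) and −0.01 in refed livers (−0.27 to 0.24). Igfbp2 was at −0.14 (−0.56 to 0.28) and 0.08 (−0.35 to 0.52). Angptl4 was at −0.08 (−0.71 to 0.56) and −0.35 (−1.05 to 0.37), the latter resting on K556R refed 1_b1, without which it was 0.04. For Fgf21, at 0.32 (−0.48 to 1.13) and 0.07 (−0.91 to 1.05), and Igfbp1, at −0.23 (−1.29 to 0.83) and 0.49 (−0.63 to 1.61), the intervals were the widest of these 5.

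Per kilobase of exon, wild-type fasted livers held most Igfbp1 (198 ± 146 CPM per kb), then Igfbp2 (168 ± 55.9), Creb3l3 (129 ± 15.7) and Angptl4 (107 ± 25.4), whose ranges overlapped. Fgf21 (4.01 ± 1.47), Gdf15 (2.84 ± 2.37) and Lepr (1.37 ± 0.30) lay far below them (SD, n = 5). After refeeding Igfbp2 (90.0 ± 19.9) and Creb3l3 (84.3 ± 4.79) led, with overlapping ranges, and Angptl4 (13.6 ± 0.83) and Igfbp1 (13.0 ± 6.23) fell to a level of their own, also overlapping. Fgf21 (1.15 ± 0.59), Gdf15 (0.58 ± 0.11) and Lepr (0.45 ± 0.16) again came last, and neighbours among these 3 overlapped in both feeding states. The K556R groups had the same leading set fasted and refed, with Creb3l3 (83.5 ± 15.0) just above Igfbp2 (83.3 ± 28.5) in refed livers, within their spread.

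Most of the 7 transcripts varied more within groups than most genes. The within-group SD of log2 CPM was 0.85 for Igfbp1, 0.72 for Fgf21, 0.72 for Gdf15, 0.68 for Lepr and 0.55 for Angptl4, against a median of 0.19 over all genes tested, and between 92.8% and 98.9% of genes had a lower one. Igfbp2 (0.35) exceeded 78.2% of all genes and 95.9% of those within 1 log2 unit of its level. Creb3l3 (0.20) was near the median of all genes and exceeded 76.8% of those of like level. Wild type fasted 1_b2 was the lowest of its group for all 7 genes, and on the first principal component it lay nearest to the refed libraries (−14.4, other fasted libraries −21.1 or lower). It is also the single wild-type fasted library of batch 2, so batch and library cannot be told apart there. The single fasted K556R library of batch 2, 1_b2, was the next nearest, at −21.1, and the lowest of its group for 4 of the 7 genes.

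Some of the 7 deviated together from their group and batch means across the 20 libraries. Of 21 pairs, 19 had a positive correlation and 7 passed at an adjusted p under 0.05 (permutation test, 100000 resamples, two-sided). The permutation swapped all 20 deviations freely, although removing the means ties them together and their spread differed between groups. For Angptl4 the SD of log2 CPM was 0.09 in refed wild type and 0.95 in refed K556R. The p-values of these correlations may therefore be too small. Over all 20 libraries Angptl4 and Creb3l3 were most alike, with Pearson r = 0.871 (permutation p = 1e-05, the smallest these resamples can give, adjusted p = 2.1e-04) and Spearman rho = 0.785 (permutation p = 8e-05, adjusted p = 0.00168). Leaving out the 2 libraries whose Angptl4 deviation lay farthest from its median gave r = 0.832. Batch 1 alone gave 0.950, and leaving out the 2 libraries set apart 0.655. The 2 farthest libraries were chosen anew for each pair, by its gene named first in the opening. Igfbp1 and Igfbp2 followed, with r = 0.681 (permutation p = 0.00115, adjusted p = 0.00824) and rho = 0.641 (permutation p = 0.00314, adjusted p = 0.0220), 0.598 without the 2 farthest libraries and 0.738 without the 2 set apart. Gdf15 correlated with Creb3l3 at r = 0.665 (rho 0.565, permutation p = 0.00138 and 0.0104, adjusted p = 0.00824 and 0.0545), 0.567 without the 2 farthest. It correlated with Angptl4 at r = 0.611 (rho 0.648, permutation p = 0.00450 and 0.00284, adjusted p = 0.0158 and 0.0220), 0.670 without the 2 farthest, and this pair did not pass in batch 1 alone (adjusted p = 0.0900) or without the 2 libraries set apart (r = 0.559, adjusted p = 0.0540).

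Fgf21 correlated with Angptl4 at r = 0.631 (rho 0.543, permutation p = 0.00157 and 0.0141, adjusted p = 0.00824 and 0.0594), with Gdf15 at 0.613 (rho 0.496, permutation p = 0.00400 and 0.0279, adjusted p = 0.0158 and 0.0733) and with Creb3l3 at 0.559 (rho 0.468, permutation p = 0.00987 and 0.0392, adjusted p = 0.0296 and 0.0914). These 3 were 0.579, 0.568 and 0.513 without the 2 farthest libraries, and none passed in batch 1 alone or without the 2 libraries set apart. Without the 2 libraries set apart Angptl4 and Igfbp1 went from r = 0.159 to 0.712 (permutation, adjusted p = 0.00588), above the 0.655 of Angptl4 and Creb3l3, and Igfbp2 and Creb3l3 from 0.490 to 0.615 (permutation, adjusted p = 0.0300). Lepr passed with no other gene. The 20 libraries share 2 batches, and batch 2 alone has too few libraries for these correlations.

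**Figure D3:**
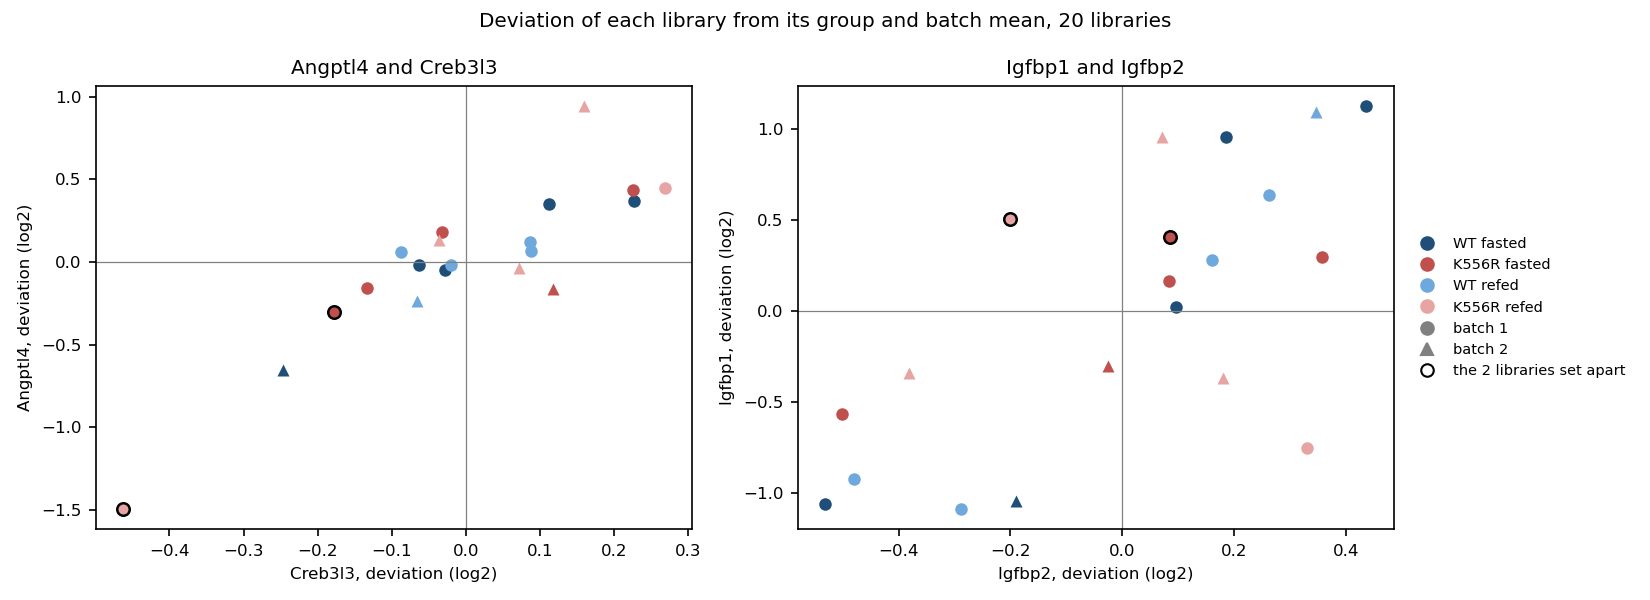
Deviation of each library in log2 CPM from its group and batch mean, Angptl4 against Creb3l3 on the left and Igfbp1 against Igfbp2 on the right, for all 20 libraries. Points run from lower left to upper right, more tightly on the left (r = 0.871) than on the right (0.681), and in the left panel K556R refed 1_b1 (black rim) lies lowest.

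The genes outside the group whose deviations were most like each member were listed by Pearson r over the same 20 libraries among 9438 genes, as a description. For Igfbp1 they were Maff (r = 0.903), Sec24b (0.873) and Ttpal (0.820), and for Lepr the collagen gene Col5a2 (0.898), Ccdc80 (0.830) and Pcolce (0.816), the last of which were at 0.694 and 0.672 without the 2 libraries set apart. Angptl4 was followed by Adck2 (0.941), Lims2 (0.903) and Gpr108 (0.894), which were at 0.820, 0.753 and 0.592 without the 2 libraries set apart, and Creb3l3 by Wbp2 (0.955), Psmb6 (0.954) and Uqcr10 (0.949). For Fgf21 they were Nr2c2ap (0.839), Ppil1 (0.832) and the lipid droplet gene Plin2 (0.827), for Gdf15 Cyp4f17 (0.885), Ube2j2 (0.861) and Mrpl38 (0.841), and for Igfbp2 Aoc2 (0.822), the apolipoprotein Apoa1 (0.809) and Imp3 (0.804).

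Lists of fasting and refeeding genes were counted beside the 7. Of 12 PPARα fasting targets, 0 rose and 11 fell in wild type (median −0.71) and 10 fell in K556R (median −0.75), against a median of −0.01 and 0.01 over all genes. Cpt1a, the gatekeeper of fatty acid oxidation, fell by 1.38 and 1.31, and Cyp4a10 and Acot1, enzymes of fatty acid metabolism, fell by 1.66 and 1.99 in wild type. Of 9 tested genes that insulin suppresses, 8 fell in each genotype (median −1.61 in wild type, −1.53 in K556R), and those with the lowest p in wild type were Per1 (−1.81 and −1.76), Pck1 (−2.78 and −2.34), Klf15 (−1.10 and −0.87) and Tat (−1.32 and −1.12). Of 10 lipogenic and glycolytic genes induced by refeeding, 10 rose in wild type (median 2.16) and 9 in K556R (median 1.37). Acly, Fasn, Srebf1 and Thrsp were at 2.55, 3.84, 2.45 and 2.27 in wild type and 2.17, 2.88, 2.48 and 1.21 in K556R. The genotype difference of the 10 had a median of −0.58 in refed livers, with 9 below 0. In fasted livers that median was 0.205, with 8 above 0. No member of these lists passed in any genotype comparison.

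Other secreted liver proteins moved in both directions. Of 20 tested hepatokines, 3 rose and 5 fell in wild type (median −0.15) and 2 rose and 6 fell in K556R (median −0.22). The growth factor Manf rose by 1.92 and 1.74, with Angptl8 (Gm6484) given above, while the fetuin Fetub fell by 0.42 and 0.39 and Fgf1 fell by 0.44 and 0.44. This share was no larger than that of all genes called (45.1% and 39.9%).

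**Figure D4:**
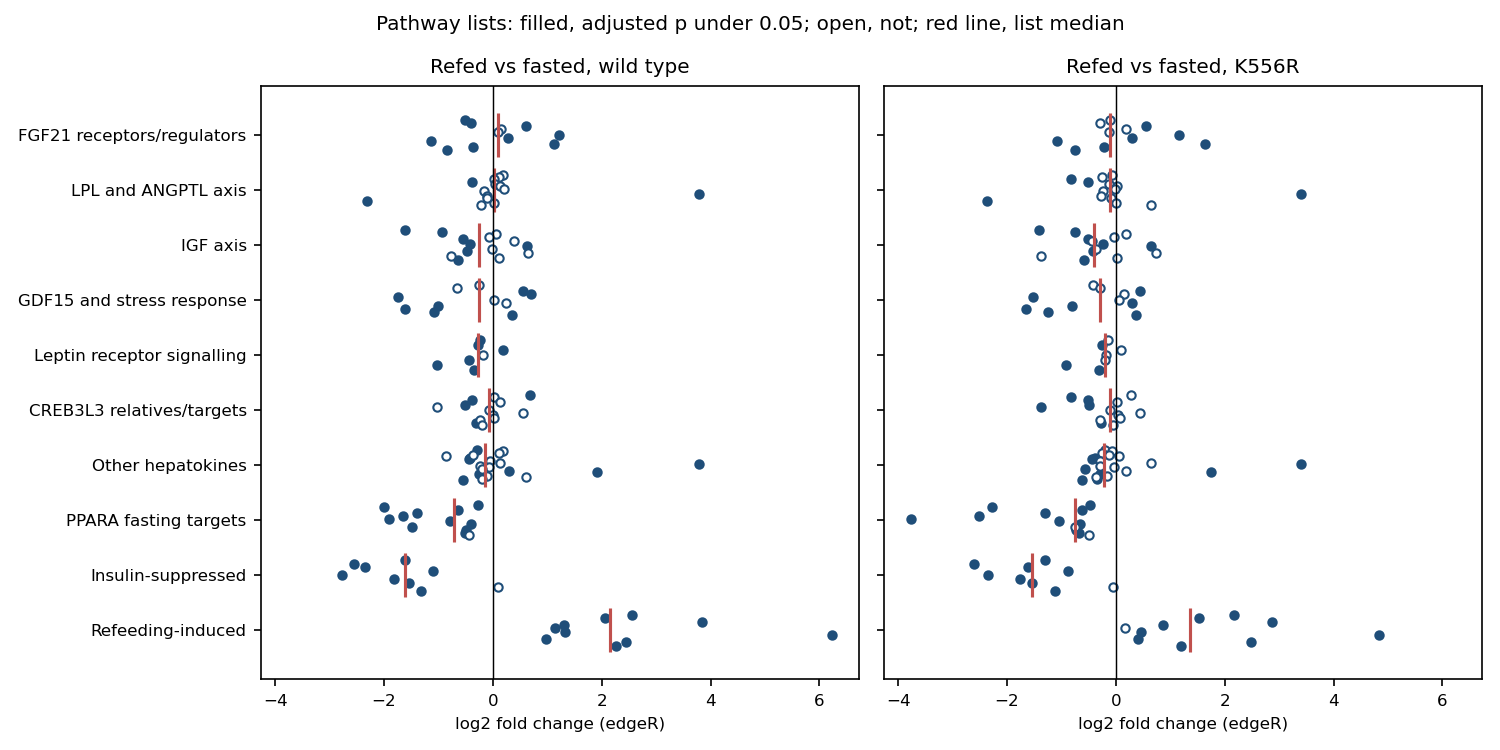
Log2 change on refeeding of every tested gene of 10 lists, wild type on the left and K556R on the right; filled points have an adjusted p under 0.05 and red lines are list medians. The insulin-suppressed list (median −1.61 in wild type) and the PPARα targets (−0.71) lie left of 0, the refeeding-induced list (2.16) lies right of it, and the other wild-type medians lie between −0.28 and 0.09.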

How the data were processed

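Read counts per gene (whole numbers, not normalized) were deposited by the authors in 1 table of 20 libraries. Per the labels' protocols, RNA was poly-T selected and primed with random hexamers; directional and non-directional second strands are both described, so strand is unknown, and none of the 7 genes overlaps another annotated gene. The submitters' processing notes name mm10, STAR, HTSeq and TopHat, without roles; the annotation is not given in the sources used here.

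The counts were filtered with filterByExpr (minimum count 10, minimum total 15), scaled by TMM and fitted with edgeR 4.0.16 (R 4.3.3; group and batch terms, robust quasi-likelihood F test, Benjamini-Hochberg over 13894 genes, threshold 0.05); DESeq2 1.42.0 and limma 3.58.1 were alternatives. Lengths and positions came from GENCODE (GRCm38), promoters from RefSeq. Pair correlations used log2 CPM residuals (prior count 2) after group and batch means. Pairing by repeat number was not shown: 4 of 24 same-numbered pairs correlated above 0.1. The highest, 0.65, was between the 2 libraries set apart, and the next was 0.186. No library pair agreed within counting noise (lowest chi-square over degrees of freedom 11.9). Named genes: the 7, Prox1, up to 4 of each list with the lowest p in wild-type refeeding, and the 3 genes most like each of the 7. Klb, which this rule does not take, was named as the co-receptor of FGF21. Some genes that this rule takes are not reported here. The genes and lists were chosen with earlier results of these data known.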

Additional observations from a re-analysis of the deposited data

Results flagged for a closer look

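The Lepr level of K556R refed 1_b1, 11.5 CPM, lay far above the other 4 libraries of its group (2.44 to 3.82 CPM): on the log2 scale its gap to the next library was 0.712 of the whole range of the group, over the limit of 0.71 for 5 samples. It was the 1 value found among 28 sets of 5 libraries (7 genes in 4 groups), where chance alone gives about 1 in 20. That library was also set apart on the second principal component, and without it and K556R fasted 1_b1 the genotype difference of Lepr averaged over feeding states was 0.33 (edgeR adjusted p = 0.601) in place of 0.84.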

How the results depend on the processing

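In wild type 7 genes were called lower on refeeding under every setting but batch 2 alone. In those settings 29.9% to 51.4% of all genes were called in either direction. In K556R 6 were called in the fit used here, beside 39.9% of all genes. Batch 1 alone gave 4 (29.5%), the replicate block 5 (32.5%) and limma 5 (36.8%). Leaving out the 2 libraries set apart gave 5 (37.5%), also with wild type fasted 1_b2 left out (37.7%). DESeq2 and no batch term gave 7 each (41.2% and 43.1%). With only the groups compared 6 were called in K556R (33.4% of all genes), Gdf15 in place of Lepr. Batch 2 alone leans on 1 library in 3 groups, assumed to vary like K556R refed. Its wild-type refeeding changes were all smaller than in the fit used here, from −2.52 for Angptl4 to −0.281 for Gdf15. Leaving out 1 library gave 7 to 7 calls in wild type (40.2% to 47.3% of all genes). It gave 5 to 7 in K556R (35.6% to 40.2%) and 0 to 0 in each genotype contrast (0.0928% at most). In fasted livers the genotype difference of Fgf21 was 1.65 in batch 2 alone, with 1 library a genotype, against 0.32 in the fit used here. The replicate block, whose numbers were not shown to pair the libraries, changed 1 call, Igfbp2 in K556R (−0.44, edgeR adjusted p = 0.203). Of the 7 correlated pairs, 3 passed in batch 1 alone and 3 without the 2 libraries set apart, where 5 pairs passed in all; batch 2 alone was not run. No refeeding change reversed.

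Genotype differences that were not called changed sign as follows, among them 3 not near 0 at first (Lepr 0.84 and Igfbp1 0.49 refed, and the Gdf15 interaction 1.05, all in batch 2 alone); the cause was not tested. In batch 2 alone, Angptl4 0.418, Igfbp1 0.75 and Igfbp2 0.0236 in fasted livers, Angptl4 0.0651, Igfbp1 −0.29, Igfbp2 −0.288, Lepr −0.0122 and Creb3l3 0.0876 in refed livers, and the Gdf15 interaction −0.142. In batch 1 alone, Gdf15 −0.046 and Creb3l3 −0.0825 fasted and Fgf21 −0.576 refed. With limma, Igfbp1 0.17 fasted and Creb3l3 0.0724 refed. With no filter on low counts, Creb3l3 −5.66e-05 fasted. With no batch term Igfbp2 −0.111, with the replicate block Fgf21 −0.0187, and with only the groups compared Fgf21 −0.103, all refed. Without the 2 libraries set apart, Angptl4 0.0233 fasted, and Angptl4 0.059 and Creb3l3 0.148 refed; without these and wild type fasted 1_b2, Gdf15 −0.0988 fasted and Creb3l3 0.115 refed. Leaving out 1 library gave ranges across 0: in fasted livers Gdf15 −0.214 to 0.598, Creb3l3 −0.0676 to 0.0642, Angptl4 −0.236 to 0.0114 and Igfbp1 −0.482 to 0.0872, and in refed livers Fgf21 −0.105 to 0.418, Creb3l3 −0.131 to 0.139, Igfbp2 −0.051 to 0.254 and Angptl4 −0.572 to 0.0414. Depth limits the scarce genes: Fgf21 and Gdf15 rested on as few as 15 and 37 reads in a refed library.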
